A study of Homo sapiens with 4 samples.

Results

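The actomyosin cytoskeleton and the YAP/TAZ pathway were examined in MDA-MB-231 cells, an established human line of triple-negative breast cancer, through 54 named genes of the 39259 in the deposited table. The genes were taken by symbol, matched from Entrez IDs, and all 54 were found. RNA was sequenced from 2 wild-type (WT) libraries and from 2 libraries labelled as a knockout (KO) of mdig, the JmjC-domain oxygenase also called mina53 and encoded by RIOX2. All 4 came from cells grown in serum-containing medium, and no drug or other treatment is named. The labels do not say how the knockout was made, whether the KO cells are 1 clone or a pool, or whether replicates were separate cultures. The p-values therefore rest only on how far these libraries spread, and that spread may be technical.

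Non-muscle cells contract by sliding bipolar filaments of myosin II along actin filaments that tropomyosins coat and alpha-actinins and filamins crosslink. Focal adhesions tie these filaments to the matrix through talin, vinculin, zyxin, paxillin and tensins. When monomeric actin is used up by filaments, the cofactors MRTFA and MRTFB enter the nucleus and act with SRF on cytoskeletal genes. The Hippo kinases STK3 and STK4, with SAV1, activate LATS1 and LATS2, with MOB1A, which hold the coactivators YAP1 and TAZ (encoded by WWTR1) in the cytoplasm. Tension on the cytoskeleton releases YAP1 and TAZ, which act with TEAD factors on targets such as ANKRD1, CCN1 and CCN2. MDA-MB-231 is known for high YAP and TAZ activity and carries a truncating mutation of NF2, a scaffold upstream of LATS1 and LATS2. RNA levels do not report phosphorylation or the place of a protein in the cell, by which this pathway is mostly controlled.

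The libraries held 22503981 to 52163811 fragments assigned to genes, and WT replicate 2 was the shallowest. Values are FPKM, in which fragment counts are scaled by gene length and library size. RIOX2 (Entrez ID 84864) measured 8.60 and 8.24 FPKM in the WT libraries and 9.23 and 9.82 FPKM in the KO libraries, always replicate 1 first, a log2 change of 0.16 (SE 0.060, adjusted p = 0.0546). RIOX2 RNA was thus not lower where the label says knockout, and KO below means the libraries labelled KO. In 7 of the 14 alternatives RIOX2 passed the threshold as a rise, among them the fit without WT replicate 1 (0.19, adjusted p = 0.0131). Markers of the line were present, with vimentin (VIM) at 2000 to 2394 FPKM and AXL at 184 to 199.9 FPKM. Of the genes listed as absent or low in the line, ESR1 and PGR lay at or under 0.00117 FPKM. FOXA1 lay at or under 0.103 FPKM and CDH1 at 0.128 to 0.625 FPKM. GATA3, from the same list, was expressed, at 4.23 and 4.22 FPKM in WT and 3.53 and 3.49 FPKM in KO. Smooth muscle genes were near 0, with MYH11 and DES at or under 0.0183 FPKM in every library. The leukocyte gene PTPRC lay at 0.121 to 0.156 FPKM and the endothelial gene PECAM1 at 0.970 and 0.985 FPKM in WT and 1.36 and 1.37 FPKM in KO. The WT libraries differed with gene length: across the 51 members tested, the log2 difference of WT replicate 2 from WT replicate 1 had a Spearman rank correlation of −0.72 with length, against −0.45 over all 11716 genes tested. Between the KO libraries this correlation was 0.12 for the members and 0.16 over all tested genes. For KO minus WT it was 0.09 for the members and 0.20 over all tested genes. Genes are not independent replicates, and the part of length in the results was not tested beyond leaving out each library.

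Of the 54 members, 51 averaged 1 FPKM or more across the libraries and were tested, with limma on log2(FPKM + 1) fitted over all 11716 such genes and Benjamini-Hochberg adjustment over them. ACTA2, CNN1 and TNS1 fell under that level and were not tested. In the libraries labelled KO, 10 members were higher and 15 lower at an adjusted p under 0.05, which is 49% of those tested. Over all tested genes 49.9% passed, 21.6% as higher and 28.4% as lower, so the members changed about as often as genes at large. The members' median log2 change was −0.058, against −0.041 over all tested genes, and their median absolute change was 0.155, against 0.184. Changes of at least 0.5 on the log2 scale were seen in 4 members (7.84%) and in 11% of all tested genes. In 39 of the 51 members the FPKM ranges of the groups did not overlap, against 77.5% of all tested genes. Leaving out either KO library lowered the counts of members called higher and lower, and leaving out either WT library raised them. The counts over all tested genes moved in the same way. Quantile normalization and median-of-ratios scaling each gave 13 members higher and 13 lower. With no filter on low values 6 were higher and 9 lower, and 2240 and 2664 of all 25798 genes then tested. The calls of TPM1, TPM2, CNN2, TAGLN2, MYL12A, PFN1, MRTFB, SAV1, NF2 and AJUBA were lost there, at limma adjusted p from 0.0520 to 0.116. Of the 25 calls, 13 held in every one of the 14 alternatives that tested the gene. A lower value in bulk RNA can mean fewer cells with the transcript or less of it per cell, and these cannot be told apart.

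As a share of all fragments the 54 genes stood at 2.97% and 3% in WT and 2.94% and 2.87% in KO. Their levels spanned a wide range. Mean levels of 1000 FPKM or more were seen in 3 members (ACTB, ACTG1 and MYL6), and 15 more lay between 100 and 1000 FPKM. The fewest fragments behind a tested member were 109, for TAGLN in WT replicate 2.

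**Figure D1:**
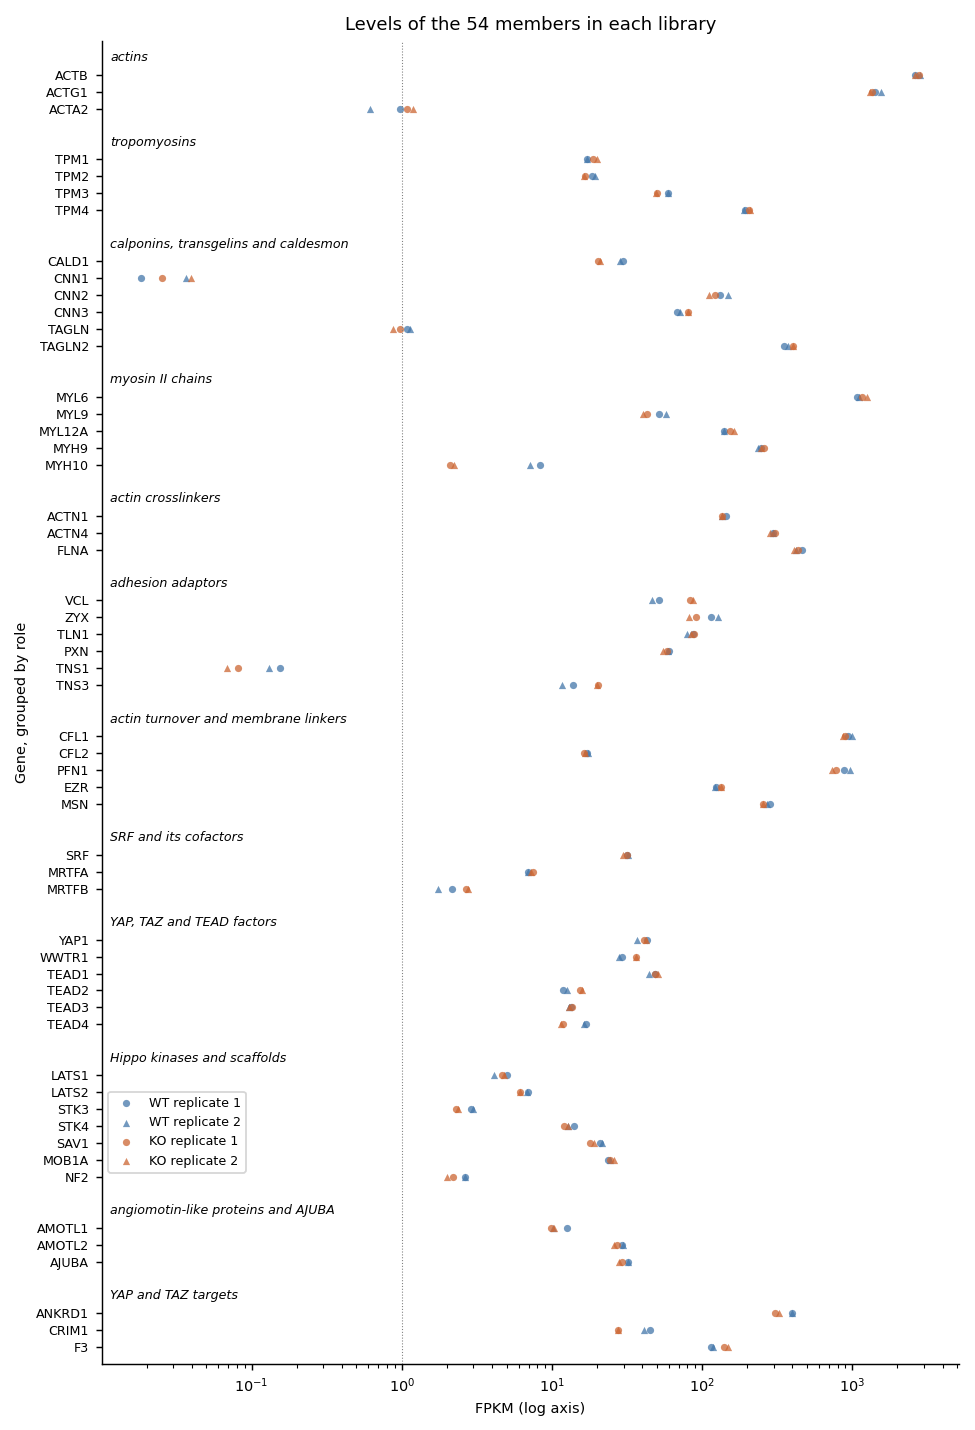
FPKM (log axis) of the 54 members in each library, grouped by role. Blue marks are WT and orange marks KO, circles replicate 1 and triangles replicate 2, and the dotted line is 1 FPKM. Levels run from 0.0183 FPKM for CNN1 to 2846 FPKM for ACTB, and the groups lie visibly apart for MYH10, VCL and TNS3.

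**Figure D2:**
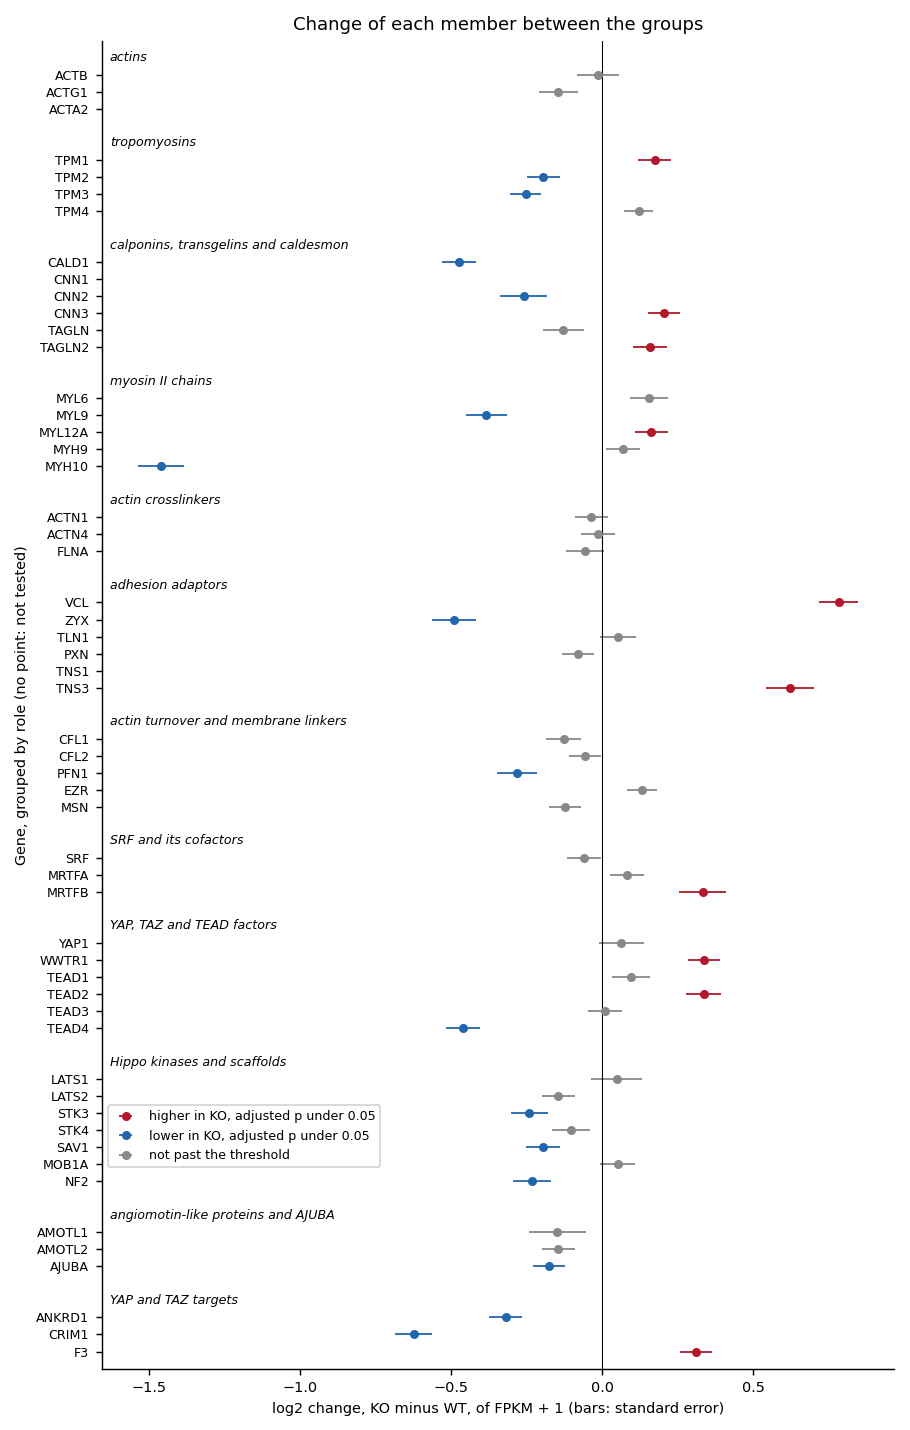
Log2 change of FPKM + 1, KO minus WT, with its standard error, for the 51 members tested. Red marks 10 members higher and blue 15 lower in the libraries labelled KO, and grey marks 26 that did not pass the threshold, with MYH10 lowest at −1.46 and VCL highest at 0.78.

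The actins were the most abundant members and did not pass the threshold. ACTB, the beta-actin of the cell cortex and stress fibers, measured 2611 and 2846 FPKM in WT and 2774 and 2623 FPKM in KO. The groups overlapped (log2 change −0.015, SE 0.069, adjusted p = 0.871), and after subtracting the median change of the neighbouring genes in its 20 Mb bin (0.19) ACTB passed as lower (−0.20, adjusted p = 0.0489). ACTG1, the gamma-actin, measured 1418 and 1553 FPKM in WT and 1359 and 1323 FPKM in KO. Its log2 change of −0.15 (SE 0.065) had an adjusted p of 0.0932, and it passed as lower in 3 alternatives, among them the fit without WT replicate 1 (−0.21, adjusted p = 0.00878). ACTA2, the smooth muscle alpha-actin that marks myofibroblasts, lay at 0.980 and 0.614 FPKM in WT and 1.08 and 1.20 FPKM in KO, from 25 to 113 fragments. ACTB made up 64.8% and 64.7% of summed actin FPKM in WT and 67.1% and 66.5% in KO. Actin genes are alike enough to share reads and have many pseudogenes, so their split is uncertain.

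Tropomyosins moved in opposite directions. TPM3, which coats filaments of the cell cortex, measured 59.5 and 59.4 FPKM in WT and 49.8 and 49.7 FPKM in KO, and fell by 0.25 on the log2 scale (SE 0.050, adjusted p = 0.00379). Each pair of replicates lay close together and the groups were well apart. TPM2, best known as a muscle tropomyosin, measured 18.5 and 19.3 FPKM in WT and 16.5 and 16.3 FPKM in KO and also fell (−0.20, adjusted p = 0.0179). TPM1, whose isoforms build stress fibers, went from 17.1 and 17.0 FPKM to 18.8 and 19.9 FPKM and rose by 0.17 (adjusted p = 0.0316). Its bin on chromosome 15 had a median change of 0.25, larger than its own, and with that median subtracted its change was −0.082 (adjusted p = 0.275). The calls of TPM1 and TPM2 were lost without either KO library (adjusted p = 0.0924 and 0.275 for TPM1 and 0.107 and 0.142 for TPM2, without KO replicates 1 and 2), and TPM2 also with bin medians subtracted (−0.15, adjusted p = 0.0553). TPM4, the main tropomyosin here, measured 193 and 191 FPKM in WT and 207 and 210 FPKM in KO, with no overlap and an adjusted p of 0.0752. It passed as higher after quantile normalization (0.17, adjusted p = 0.0202) and median-of-ratios scaling (0.17, adjusted p = 0.0240), and with its bin median of −0.17 subtracted (0.29, adjusted p = 0.00288). TPM4 held 66.9% and 66.6% of summed tropomyosin FPKM in WT and 70.8% and 71.0% in KO, and TPM3 20.7% in both WT libraries and 17.1% and 16.8% in KO. The summed level was 286 to 288 FPKM in WT and 292 to 296 FPKM in KO.

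Among the proteins that decorate actin filaments and restrain myosin, CALD1 changed most. CALD1, caldesmon, blocks myosin's access to actin until it is phosphorylated. It measured 29.8 and 28.3 FPKM in WT and 20.2 and 21.0 FPKM in KO, a fall of 0.47 on the log2 scale (SE 0.056, adjusted p = 0.000362). Both KO libraries lay well under both WT libraries. The calponins split. CNN2, the calponin of non-muscle cells, measured 132 and 149 FPKM in WT and 123 and 111 FPKM in KO and fell (−0.26, SE 0.077, adjusted p = 0.0252), with −0.17 as the median of its bin on chromosome 19. CNN3, the acidic calponin, measured 68.3 and 71.3 FPKM in WT and 80.3 and 80.9 FPKM in KO and rose (0.20, adjusted p = 0.0118). Their balance moved accordingly, with CNN3 at 34.1% and 32.4% of summed calponin FPKM in WT and 39.5% and 42.1% in KO. Without KO replicate 2 neither calponin passed (adjusted p = 0.175 for CNN2 and 0.112 for CNN3), and CNN3 did not pass without KO replicate 1 either (adjusted p = 0.0905). CNN2 changed by −0.17 without WT replicate 2 (adjusted p = 0.00838). It was also lost after median-of-ratios scaling (adjusted p = 0.0682) and after subtracting its bin median (−0.092, adjusted p = 0.375). CNN1, the smooth muscle calponin, had 2 to 5 fragments per library.

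The transgelins bind actin filaments along their length. TAGLN2, the abundant form in epithelial and blood cells, measured 349 and 375 FPKM in WT and 404 FPKM in both KO libraries, and rose by 0.16 (SE 0.056, adjusted p = 0.0446). This small rise was lost without WT replicate 1 (0.11, adjusted p = 0.126) or either KO library (adjusted p = 0.222 and 0.228), and in limma without trend and robust (adjusted p = 0.0641). TAGLN, the smooth muscle form and a classic SRF target, lay near the filter, at 1.08 and 1.14 FPKM in WT and 0.977 and 0.882 FPKM in KO, with an adjusted p of 0.142.

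The strongest change of all members was in a myosin heavy chain. MYH10 encodes the heavy chain of non-muscle myosin IIB, the slower and more tension-holding of the non-muscle myosins (Entrez ID 4628, chromosome 17 from 8474212 to 8631369 in the deposited coordinates, on GRCh38). It measured 8.29 and 7.17 FPKM in WT, from 3147 and 1356 fragments, and 2.09 and 2.24 FPKM in KO, from 855 and 982 fragments. The mean went from 7.73 ± 0.792 to 2.16 ± 0.109 FPKM (SD, n = 2), a ratio of 0.280, and the log2 change was −1.46 (SE 0.076, adjusted p = 7.79e-06). Across the alternatives its change ran from −1.84 to −1.36, and the other genes of its bin had a median of −0.10. MYH9, the heavy chain of non-muscle myosin IIA, measured 246 and 234 FPKM in WT and 259 and 245 FPKM in KO, with overlapping groups (0.068, SE 0.056, adjusted p = 0.333). MYH10 accordingly went from 3.26% and 2.97% of the summed level of both chains to 0.800% and 0.905%. MYH14, the third non-muscle heavy chain, was listed at 0 in both WT libraries and at 0.0534 and 0.0333 FPKM in KO.

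The light chains moved in different directions. MYL9, a regulatory light chain whose phosphorylation switches the motor on, measured 52.1 and 58.0 FPKM in WT and 43.2 and 40.6 FPKM in KO and fell by 0.38 (SE 0.067, adjusted p = 0.00214). MYL12A, a closely related regulatory chain, went from 141 and 140 FPKM to 153 and 162 FPKM and rose by 0.16 (adjusted p = 0.0343). That rise missed the threshold without KO replicate 1 (adjusted p = 0.0916), without KO replicate 2 (adjusted p = 0.326) and in limma without trend and robust (adjusted p = 0.0535), and was 0.26 with its bin median of −0.09 subtracted (adjusted p = 0.00712). Reads of MYL12A can be shared with its neighbour MYL12B, which measured 222 and 237 FPKM in WT and 205 and 217 FPKM in KO. MYL9 fell from 27.0% and 29.3% of the sum of MYL9 and MYL12A to 22.1% and 20%. MYL6, the essential light chain, measured 1072 and 1110 FPKM in WT and 1167 and 1264 FPKM in KO (0.16, adjusted p = 0.0702), and passed as higher without WT replicate 2 (0.18, adjusted p = 0.0255) among 6 alternatives, up to 0.32 with its bin median of −0.17 subtracted (adjusted p = 0.00506).

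None of the crosslinkers passed the threshold or kept its groups apart. ACTN1 and ACTN4, the alpha-actinins, measured 135 to 144 FPKM and 284 to 306 FPKM over the 4 libraries. Their log2 changes were −0.036 (SE 0.054) and −0.013 (SE 0.056). FLNA, the filamin that braces the cortex and links it to integrins, measured 410 to 459.9 FPKM (−0.058, SE 0.063, adjusted p = 0.469).

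Of the genes for actin turnover and membrane linkage, 1 of 5 passed (20%, against 49.9% of all tested genes). PFN1, profilin, which feeds actin monomers to growing ends, measured 883 and 967 FPKM in WT and 782 and 738 FPKM in KO and fell by 0.28 (SE 0.065, adjusted p = 0.00804). Without KO replicate 2 it missed the threshold (adjusted p = 0.102), as it did after subtracting the bin median (−0.18, adjusted p = 0.0584). CFL1 and CFL2, cofilins that sever filaments, measured 875 to 1003 FPKM and 16.4 to 17.4 FPKM, with adjusted p of 0.104 and 0.385. Without WT replicate 1, CFL1 passed as lower (−0.18, adjusted p = 0.0220). EZR and MSN, ezrin and moesin, link filaments to the plasma membrane. EZR measured 123 and 122 FPKM in WT and 134 and 135 FPKM in KO (0.13, adjusted p = 0.0550) and passed as higher in 6 alternatives, among them the fit without WT replicate 1 (0.14, adjusted p = 0.0389) and median-of-ratios scaling (0.18, adjusted p = 0.0188). MSN measured 286 and 271 FPKM in WT and 256 and 255 FPKM in KO (−0.12, adjusted p = 0.0851) and passed as lower without WT replicate 2 (−0.16, adjusted p = 0.0169).

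Adhesion adaptors held the 2 largest rises among the members. VCL, vinculin, reinforces the link between talin and actin under force (Entrez ID 7414, chromosome 10, 73998116 to 74121363). It measured 51.8 and 46.2 FPKM in WT and 83.2 and 86.6 FPKM in KO, and its log2 change was 0.78 (SE 0.065, adjusted p = 7.63e-05). The KO libraries were 1.73 times the WT mean and lay well above both WT libraries. The other genes of its bin had a median change of 0.35, and with that subtracted VCL still passed (0.43, adjusted p = 0.00168). TNS3, a tensin of central adhesions (Entrez ID 64759, chromosome 7, 47275154 to 47582553), measured 13.9 and 11.7 FPKM in WT and 20.2 and 20.04 FPKM in KO and rose by 0.62 (SE 0.079, adjusted p = 0.000621). ZYX, zyxin, is recruited to strained filaments and helps to mend them. It went the other way, from 115 and 128 FPKM to 90.7 and 81.8 FPKM (−0.49, SE 0.073, adjusted p = 0.00119). VCL, TNS3 and ZYX kept direction and call in all 14 alternatives.

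The integrin-binding protein talin, TLN1, measured 79.8 to 88.3 FPKM with overlapping groups (0.052, adjusted p = 0.494). PXN, the scaffold paxillin, measured 60.1 and 59.8 FPKM in WT and 58.2 and 55.2 FPKM in KO (−0.079, adjusted p = 0.246). TNS1 lay at 0.155 and 0.130 FPKM in WT and 0.0809 and 0.0691 FPKM in KO, under the filter, from 43 to 103 fragments. Thus vinculin, zyxin and tensin-3 differed in level between the groups while the threshold was not passed for the talin and paxillin that they work with. Whether the change of one adaptor differed from that of another was not tested.

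**Figure D3:**
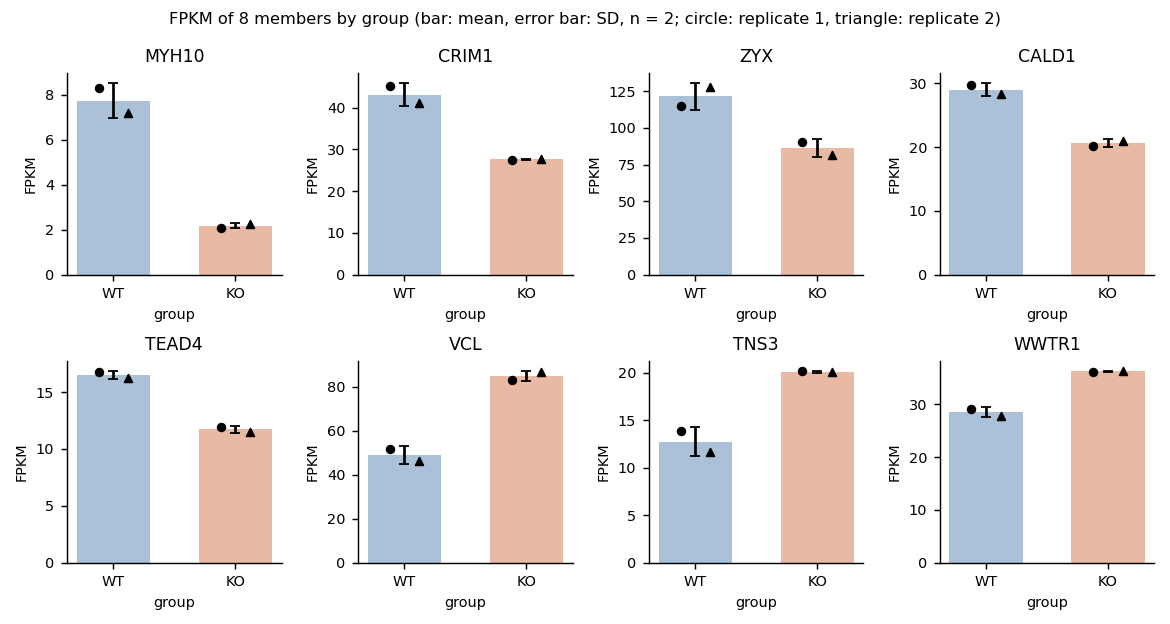
FPKM of 8 members, by group. Bars are means, error bars the SD of 2 libraries, circles replicate 1 and triangles replicate 2. The KO libraries lie under both WT libraries for MYH10, CRIM1, ZYX, CALD1 and TEAD4 and above both for VCL, TNS3 and WWTR1.

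SRF, the factor that binds CArG boxes in cytoskeletal genes, did not pass the threshold. It measured 31.9 and 32.1 FPKM in WT and 31.6 and 29.6 FPKM in KO (−0.061, SE 0.056, adjusted p = 0.385), and with its bin median of 0.14 subtracted it passed as lower (−0.20, adjusted p = 0.0244). Its actin-sensing cofactor MRTFA measured 6.94 and 6.98 FPKM in WT and 7.53 and 7.31 FPKM in KO (0.081, adjusted p = 0.259). MRTFB, the related cofactor, measured 2.18 and 1.75 FPKM in WT and 2.70 and 2.74 FPKM in KO and rose by 0.33 (SE 0.079, adjusted p = 0.00908). WT replicate 2 was the lowest of the 4. The change of MRTFB was 0.23 without WT replicate 2 (adjusted p = 0.00441) and 0.43 without WT replicate 1 (adjusted p = 2.06e-08). Without KO replicate 2 its call was lost (adjusted p = 0.0554).

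Of the coactivators and their TEAD partners, WWTR1 and TEAD2 rose and TEAD4 fell. WWTR1, which encodes TAZ (Entrez ID 25937, chromosome 3, 149517235 to 149724788), measured 29.2 and 27.8 FPKM in WT and 36.1 and 36.3 FPKM in KO and rose by 0.34 (SE 0.053, adjusted p = 0.00137). YAP1 measured 43.1 and 37.0 FPKM in WT and 41.3 and 42.3 FPKM in KO. Its groups overlapped (0.063, SE 0.074, adjusted p = 0.506), though without WT replicate 1 it passed as higher (0.17, adjusted p = 0.0136). The sum of YAP1 and WWTR1 was 72.2 and 64.9 FPKM in WT and 77.4 and 78.6 FPKM in KO. WWTR1 made up 40.4% and 42.9% of that sum in WT and 46.7% and 46.2% in KO. TEAD4 fell from 16.8 and 16.3 FPKM to 11.9 and 11.5 FPKM (−0.46, SE 0.055, adjusted p = 0.000381). TEAD2 rose from 11.8 and 12.6 FPKM to 15.4 and 15.9 FPKM (0.34, SE 0.058, adjusted p = 0.00207). WWTR1, TEAD2 and TEAD4 kept direction and call in all 14 alternatives.

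TEAD1, the most abundant family member, measured 48.8 and 44.4 FPKM in WT and 48.4 and 51.2 FPKM in KO (0.096, adjusted p = 0.238), and without WT replicate 1 it passed as higher (0.16, adjusted p = 0.0162). TEAD3 measured 12.9 to 13.7 FPKM (adjusted p = 0.913). Summed TEAD FPKM was 90.8 and 86.3 in WT and 89.5 and 91.6 in KO. Within that sum TEAD4 went from 18.5% and 18.9% to 13.4% and 12.6%, and TEAD2 from 13.0% and 14.6% to 17.2% and 17.3%. In WT TEAD4 thus ranked second and in KO TEAD2 did, as a description of these libraries.

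**Figure D4:**
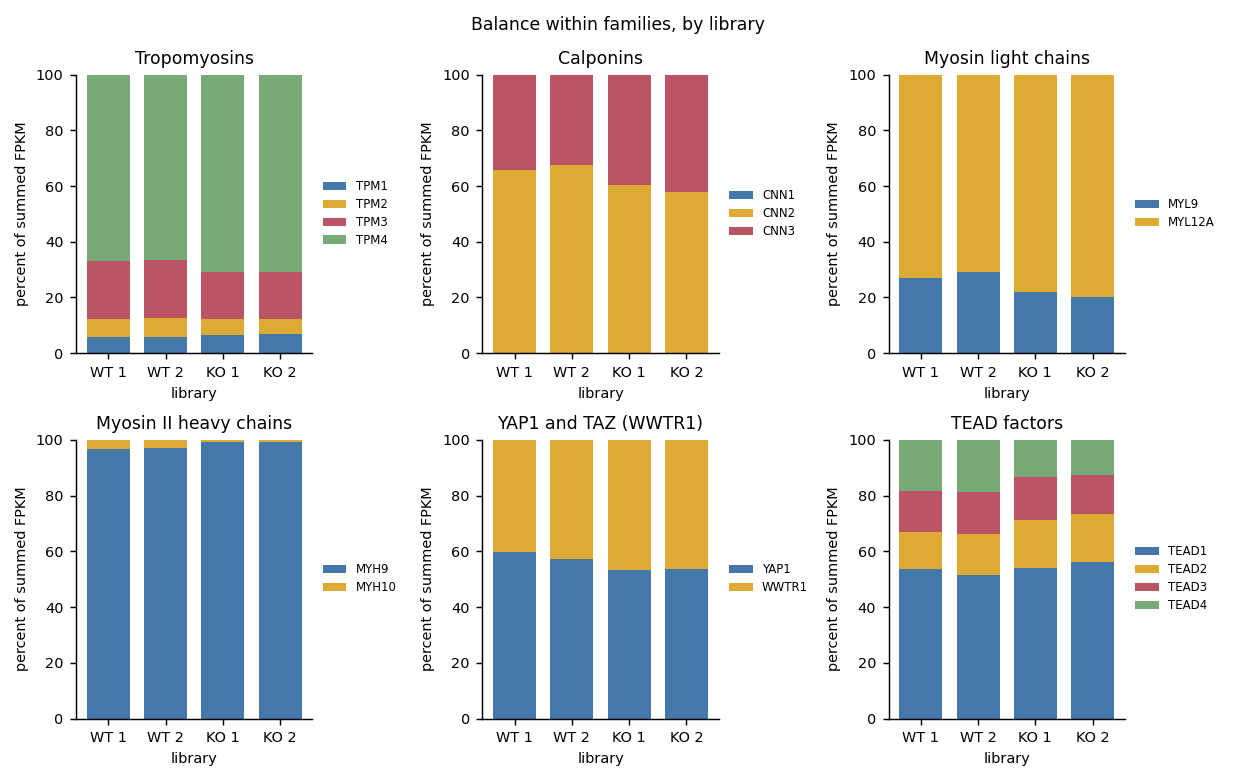
Share of each gene in the summed FPKM of the family members shown, in percent, for each of the 4 libraries. The light chain sum holds MYL9 and MYL12A only, without MYL12B. TPM1, TPM4, CNN3, MYL12A, MYH9, WWTR1, TEAD1 and TEAD2 take larger shares in both KO libraries than in both WT libraries. TPM2, TPM3, CNN2, MYL9, MYH10, YAP1 and TEAD4 take smaller ones.

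Among the Hippo kinases and scaffolds, 3 of 7 fell and 0 rose, all by less than 0.25 on the log2 scale of FPKM + 1. That is 42.9% past the threshold, against 49.9% of all tested genes. STK3, the upstream kinase MST2, measured 2.89 and 2.96 FPKM in WT and 2.29 and 2.36 FPKM in KO (−0.24, SE 0.060, adjusted p = 0.0110). NF2, the scaffold merlin that brings LATS kinases to the membrane, measured 2.65 FPKM in both WT libraries and 2.20 and 2.005 FPKM in KO (−0.23, SE 0.064, adjusted p = 0.0167). At these low levels the pseudocount of 1 understates the change. The ratio of KO to WT mean FPKM was 0.794 for STK3 and 0.795 for NF2. SAV1, the scaffold of STK3 and STK4, measured 21.0 and 21.6 FPKM in WT and 17.96 and 19.0 FPKM in KO (−0.20, SE 0.056, adjusted p = 0.0205). All 3 calls were lost without either KO library: leaving out KO replicates 1 and 2 in turn, the adjusted p was 0.108 and 0.0762 for STK3, 0.0544 and 0.184 for NF2 and 0.205 and 0.0702 for SAV1. NF2 did not pass either with its bin median subtracted (adjusted p = 0.107), nor SAV1 after quantile normalization (adjusted p = 0.05).

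LATS1, which phosphorylates YAP1 and TAZ, measured 5.03 and 4.10 FPKM in WT and 4.64 and 4.83 FPKM in KO, with overlapping groups (adjusted p = 0.662). Without WT replicate 1 it passed as higher (0.17, adjusted p = 0.0300). LATS2, the related kinase and itself a YAP target, measured 6.96 and 6.82 FPKM in WT and 6.16 and 6.10 FPKM in KO (−0.15, SE 0.056, adjusted p = 0.0609) and passed as lower without WT replicate 2 (−0.16, adjusted p = 0.0426). STK4, the kinase MST1, measured 13.99 and 12.9 FPKM in WT and 12.1 and 12.8 FPKM in KO (−0.10, adjusted p = 0.205) and passed as lower without WT replicate 2 (−0.16, adjusted p = 0.0396). MOB1A, the coactivator of LATS kinases, measured 23.8 to 25.8 FPKM over the libraries (adjusted p = 0.481).

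AJUBA, a LIM protein that inhibits LATS kinases at junctions and adhesions, measured 32.3 and 32.4 FPKM in WT and 29.2 and 27.9 FPKM in KO and fell by 0.18 (SE 0.053, adjusted p = 0.0256). This call was lost without KO replicate 1 (adjusted p = 0.0919) or 2 (adjusted p = 0.241), after median-of-ratios scaling (adjusted p = 0.0802) and after quantile normalization (adjusted p = 0.133). The angiomotin-like proteins AMOTL1 and AMOTL2 hold YAP1 at junctions. AMOTL1 measured 12.6 and 10.2 FPKM in WT and 9.88 and 10.4 FPKM in KO (adjusted p = 0.225), and without WT replicate 2 it passed as lower (−0.29, adjusted p = 9.03e-05). AMOTL2, which is also a YAP target, measured 29.4 and 29.7 FPKM in WT and 27.3 and 25.9 FPKM in KO (−0.15, adjusted p = 0.0549) and passed as lower without WT replicate 1 (−0.16, adjusted p = 0.0299).

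The targets of YAP and TAZ divided. CRIM1, a transmembrane protein that binds BMP ligands (Entrez ID 51232, chromosome 2, 36355778 to 36551135), fell from 45.1 and 41.1 FPKM in WT to 27.6 FPKM in both KO libraries (−0.63, SE 0.060, adjusted p = 0.000141). ANKRD1, a nuclear ankyrin-repeat protein and the most used readout of YAP activity beside CCN1 and CCN2, measured 395 and 397 FPKM in WT and 307 and 327 FPKM in KO and fell by 0.32 (SE 0.055, adjusted p = 0.00195). F3, tissue factor, which starts blood clotting, measured 116 and 118 FPKM in WT and 140 and 149 FPKM in KO and rose by 0.31 (SE 0.054, adjusted p = 0.00221). All 3 kept direction and call in the 14 alternatives.

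Beside these, CCN1 and CCN2, matricellular proteins that bind integrins, fell as well. CCN1 measured 491 and 508 FPKM in WT and 382 and 385 FPKM in KO (−0.38, SE 0.052, adjusted p = 0.000658). CCN2 measured 222 and 223 FPKM in WT and 177 and 179 FPKM in KO (−0.32, SE 0.049, adjusted p = 0.00120). A published score of YAP and TAZ targets holds 22 genes, 5 of them members. All 22 were tested, and 8 rose and 7 fell, with a median log2 change of −0.031. That is 68.2% past the threshold, against 49.9% of all tested genes. Of the 17 that are not members, the largest rises past the threshold were CCDC80, a matrix protein (1.62 and 1.55 FPKM in WT, 2.68 and 2.89 FPKM in KO, log2 change 0.55), and NT5E, the ectonucleotidase CD73 (129 and 122 FPKM in WT, 174 and 184 FPKM in KO, log2 change 0.51). The largest falls were FJX1, a Golgi kinase (17.5 and 20.6 FPKM in WT, 12.8 and 12.6 FPKM in KO, log2 change −0.54), and NUAK2, a kinase of the AMPK family (2.73 and 2.85 FPKM in WT, 1.76 and 1.67 FPKM in KO, log2 change −0.48).

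**Figure D5:**
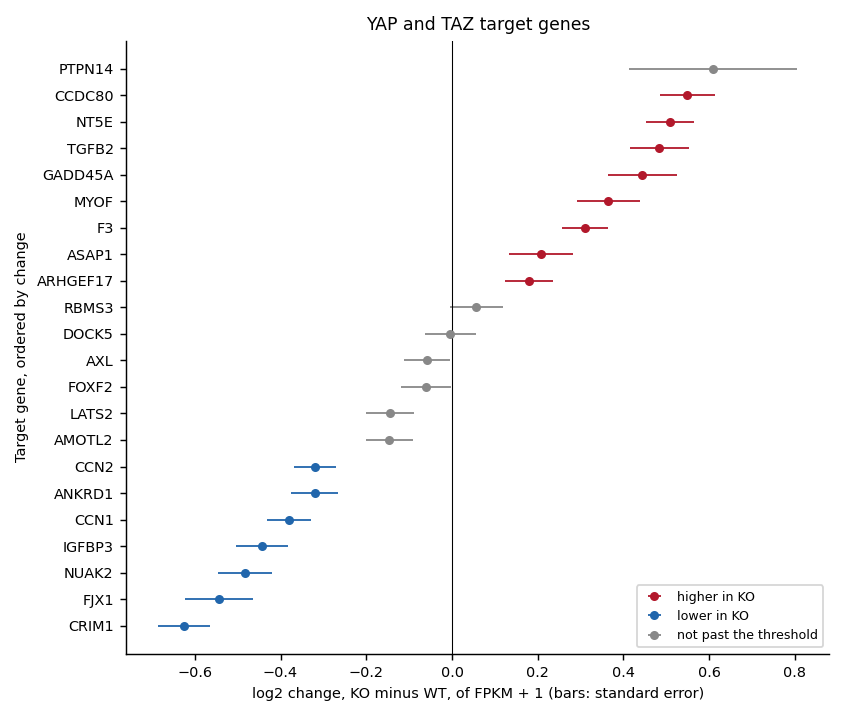
Log2 change of FPKM + 1, KO minus WT, with its standard error, for the 22 genes of the YAP and TAZ target score, ordered by change. Red marks 8 genes higher and blue 7 lower in the libraries labelled KO, from CRIM1 at −0.63 to CCDC80 at 0.55 among those past the threshold.

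TEAD factors bind the letters GGAATG, read on either strand (CATTCC on the other), and 4 promoters are shown because they carry these letters beside genes that moved in different directions. Each is the 250 bases before the RefSeq start, on GRCh38.p14, 5′ to 3′ on the strand of the gene, with the TEAD letters in capitals. ANKRD1 and CCN2 fell, and TGFB2, which encodes a TGF-beta ligand, and VCL rose.
ANKRD1 (chr10:90921088-90921337, minus strand): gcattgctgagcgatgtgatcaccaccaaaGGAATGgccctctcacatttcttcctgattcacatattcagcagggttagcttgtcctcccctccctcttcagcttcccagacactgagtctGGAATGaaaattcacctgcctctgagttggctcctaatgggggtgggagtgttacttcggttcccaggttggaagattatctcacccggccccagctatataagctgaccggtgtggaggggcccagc
CCN2 (chr6:131951373-131951622, minus strand): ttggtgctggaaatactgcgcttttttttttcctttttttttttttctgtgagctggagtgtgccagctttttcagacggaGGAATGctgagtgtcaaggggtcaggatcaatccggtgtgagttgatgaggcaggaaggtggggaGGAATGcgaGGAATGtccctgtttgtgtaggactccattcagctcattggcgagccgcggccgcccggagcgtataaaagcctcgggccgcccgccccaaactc
TGFB2 (chr1:218345086-218345335, plus strand): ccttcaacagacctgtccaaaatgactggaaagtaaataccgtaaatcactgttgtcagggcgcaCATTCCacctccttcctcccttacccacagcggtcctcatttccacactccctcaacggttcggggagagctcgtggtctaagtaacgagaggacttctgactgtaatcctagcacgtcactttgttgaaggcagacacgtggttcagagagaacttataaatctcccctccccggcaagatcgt
VCL (chr10:73997866-73998115, plus strand): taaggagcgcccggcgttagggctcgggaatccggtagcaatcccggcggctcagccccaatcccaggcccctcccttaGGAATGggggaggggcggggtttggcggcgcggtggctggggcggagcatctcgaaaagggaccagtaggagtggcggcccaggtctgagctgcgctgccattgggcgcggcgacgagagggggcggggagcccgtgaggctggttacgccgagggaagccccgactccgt
The letters lie in 2 places in the ANKRD1 window, starting 220 and 128 bases before the start, and in 3 places in that of CCN2, at 169, 104 and 95 bases. TGFB2 holds them at 185 bases and VCL at 171. TGFB2 measured 18.6 and 16.4 FPKM in WT and 24.3 and 25.4 FPKM in KO (log2 change 0.48, adjusted p = 0.000842). Of all 35116 windows of this length 11.9% held the letters, as did 19.8% of the 86 windows of members, which cover 47 of the 54. Of the target score genes, 16 had a window and 8 held the letters in 1 or more. Of these 8, 3 fell (ANKRD1, CCN2 and NUAK2), 1 rose (TGFB2) and 4 did not pass the threshold, which 49.9% of all tested genes passed. A CArG box, the site of SRF, was found on either strand in 6.98% of the members' windows and 1.16% of all windows. The 6 members with such a box were ACTG1, ACTN1, CNN2, FLNA, SRF and TPM4, of which CNN2 fell and 5 did not pass the threshold. CNN2 lost its call in 4 alternatives, and ACTG1, TPM4 and SRF each passed in at least 1. A match of letters is a description and does not show that a factor binds there.

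Other genes of these pathways, taken from lists that are not part of the 54, gave the following counts. Of 22 tested Hippo regulators 8 rose and 4 fell, with PTPN14 counted both here and among the targets. That is 54.5% past the threshold, against 49.9% of all tested genes, with a median of 0.057, against −0.041. FAT4 and FAT1, giant cadherins upstream of the pathway, rose by 1.10 and 0.83 on the log2 scale. FAT4 measured 2.50 and 1.63 FPKM in WT and 5.496 and 5.55 FPKM in KO, and FAT1 55.8 and 39.7 FPKM in WT and 82.0 and 87.4 FPKM in KO. Both lie on chromosome 4 in bins with medians of 0.48 and 0.40, and WT replicate 2 was the lowest library for both. FAT1 (adjusted p = 0.0391) missed the threshold when KO replicate 1 (adjusted p = 0.167) or 2 (adjusted p = 0.196) was left out. With its bin median subtracted FAT1 did not pass (0.43, adjusted p = 0.178) and FAT4 did (0.62, adjusted p = 0.0206). RASSF5 (−0.52) and RASSF1 (−0.46), adaptors that bind STK3 and STK4, fell, RASSF1 in a bin with a median of −0.21 and by −0.25 with that subtracted (adjusted p = 0.0139).

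Of 31 genes for the Arp2/3 complex, the WAVE complex and filament capping, 8 rose and 11 fell. The share past the threshold was 61.3%, against 49.9% of all tested genes, and the median was −0.091, against −0.041. WASF3, a WAVE protein that drives branched actin, fell from 2.82 and 2.71 FPKM to 0.566 and 0.582 FPKM (−1.26, SE 0.063, adjusted p = 6.93e-06). At this low level the pseudocount of 1 understates the change, which ran from −2.27 to −1.14 on the log2 scale over the alternatives. PFN2, the profilin best known from neurons, fell from 16.7 and 16.1 FPKM to 6.45 and 7.05 FPKM (−1.17, SE 0.062, adjusted p = 8.63e-06). GSN, gelsolin, which severs and caps filaments, rose from 11.7 and 13.0 FPKM to 19.8 and 19.4 FPKM (0.63, adjusted p = 0.000188), and WASF2 rose by 0.46 in a bin with a median of 0.24. With bin medians subtracted WASF2 did not pass (adjusted p = 0.0540).

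Of 25 tested focal adhesion genes outside the 54, 3 rose and 9 fell. Past the threshold were 48%, against 49.9% of all tested genes, and the median was −0.041 in both. TNS4, a short tensin without the actin-binding part of the others, rose from 48.4 and 48.8 FPKM to 160 and 147 FPKM (1.64, SE 0.058, adjusted p = 1.75e-06). TES, a LIM protein of adhesions, rose by 0.34 (adjusted p = 0.00115). FERMT1, the epithelial kindlin that activates integrins, fell from 5.89 and 5.76 FPKM to 3.35 and 3.29 FPKM (−0.66, adjusted p = 9.56e-05), and LIMA1, which stabilises filaments, fell by 0.40 (adjusted p = 0.000840), or −0.23 with its bin median of −0.17 subtracted (adjusted p = 0.0140). FLNC, the filamin best known from muscle, measured 30.8 and 27.3 FPKM in WT and 25.0 and 24.0 FPKM in KO and fell by 0.23 (adjusted p = 0.0209), or −0.15 without WT replicate 1 (adjusted p = 0.0360). FLNC did not pass when KO replicate 1 (adjusted p = 0.0613) or 2 (adjusted p = 0.140) was left out, after quantile normalization (adjusted p = 0.0685), after median-of-ratios scaling (adjusted p = 0.0603) or with no filter on low values (adjusted p = 0.1).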

How the data were processed

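RNA of MDA-MB-231 cells was sequenced in 4 libraries, grouped by their titles (2 WT, 2 KO). STAR, Subread and DESeq2 are listed, with no version or role, per the submitters' processing notes. Which build and annotation were used, and whether strand was read, is not given in the sources used here, so reads of overlapping antisense genes cannot be told apart. The authors deposited FPKM for 39259 genes by Entrez ID, per the file headers. FPKM times gene length, divided by its smallest value in a library, gave whole fragments for 100% of values (tolerance 0.001), which gave the depths. Columns of other samples numbered 0. Symbols came from RefSeq on GRCh38.p14 (96.0% of genes), and 98.4% of matched genes on 1 chromosome start or end within 1000 bp of that assembly's coordinates.

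The test was limma (3.58.1, R 4.3.3; eBayes, both trend and robust) on the log2 of FPKM + 1, which understates changes of low genes, where the 4 libraries averaged 1 FPKM or more, and calls were made at a Benjamini-Hochberg adjusted p under 0.05. Replicates differed beyond sampling noise (chi-square over its degrees of freedom 7.62 in WT and 5.30 in KO), so none was merged. The alternatives used 0.1 as pseudocount, a filter of 5 FPKM, no filter, quantile normalization, median-of-ratios scaling, limma without trend and robust, a replicate block, voom on fragments, subtraction of the median change of other genes in 20 Mb bins, and each library left out. A crossed block was added after the data were seen. Where 1 library was left out, its partner was taken to be as variable as the other group. On simulated data with 11712 genes tested, 89% of changes of 0.5 (log2) and 98% of changes of 1 were called. The simulation changed 200 genes, gave every gene the same extra variability and held no difference with gene length. The libraries here differ from it in these respects, so the percentages check the code and do not give the power of the test on them.

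The members and lists were chosen with earlier results of these data known. Every member is accounted for. Outside the members, CCN1, CCN2 and, per list, the 2 largest rises and 2 largest falls past the threshold are named. Some listed genes are not reported here. TGFB2, MYL12B, MYH14 and PTPN14 were named after their values were seen.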

Additional observations from a re-analysis of the deposited data

How the results depend on the processing

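Among the 51 members tested, 10 were higher and 15 lower in the libraries labelled KO. With no filter on low values, where 25798 genes were tested, the counts were 6 and 9, and the cause was not tested. With each library left out in turn, the higher count ran from 5 to 13 and the lower from 8 to 19. Both were lowest without KO replicate 2. In the other alternatives the counts stayed within 1.5 times, but their balance moved with the scaling. Quantile normalization and median-of-ratios scaling each gave 13 higher and 13 lower. Over all tested genes, 43.2% of calls were higher in the main fit, 48.3% after quantile normalization and 51.9% after median-of-ratios scaling. The replicate numbers are not stated to pair the cultures, and deviations of same-numbered libraries correlated at −0.225 across genes. With a replicate block 7 were higher and 14 lower, and with crossed numbers 13 and 19. Over all tested genes these blocks gave 2348 higher and 3029 lower, and 2839 and 3821, against 2527 and 3323 in the main fit. TPM1 was the called member that changed sign, at −0.082 with bin medians subtracted. Of the 25 calls, 12 were lost or reversed in at least 1 alternative, and of the 26 members not called, 15 passed in at least 1. Among these, YAP1, TEAD1, LATS1, MSN, STK4 and AMOTL1 passed only without a WT library, where more of all tested genes passed as well.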

Other observations

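CAV1, caveolin-1, a membrane protein that couples caveolae to stress fibers, was listed as a marker of the line. It measured 216 and 223 FPKM in WT and 326 and 335 FPKM in the libraries labelled KO, and it rose by 0.59 on the log2 scale (SE 0.051, limma adjusted p = 9.19e-05). VIM, the intermediate filament protein vimentin, measured 2275 and 2394 FPKM in WT and fell by 0.22 (limma adjusted p = 0.0154), where the other genes of its bin on chromosome 10 had a median of −0.32. CDH1, E-cadherin, lay under the filter at 0.177 and 0.128 FPKM in WT and 0.597 and 0.625 FPKM in the libraries labelled KO.

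PTPN14, a phosphatase that binds YAP1, had the largest SE of the target score genes. It measured 21.3 and 14.8 FPKM in WT and 26.9 and 28.2 FPKM in the libraries labelled KO (0.61, SE 0.20, limma adjusted p = 0.0819). WT replicate 2 was its lowest library, as it was for FAT1 and MRTFB.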
